A study of Mus musculus with 16 samples.

Results

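Transcripts of 10 genes that set the restriction point of the cell cycle were followed through differentiation of C2C12 myoblasts. C2C12 is an established mouse line whose cells leave the cycle and fuse into myotubes when serum is reduced. The genes were the D-type cyclins Ccnd1, Ccnd2 and Ccnd3, their kinases Cdk4 and Cdk6, the inhibitors Cdkn1a, Cdkn1b, Cdkn1c and Cdkn2c, and Rb1. They were chosen by gene symbol, 10 of the 35275 genes in the deposited table, with the lower Ccnd2 of the knockout cells already known. The Ccnd2 difference between genotypes is therefore described without a test.

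The 16 libraries came from 4 lines of cells labelled C2C12 PAX7 NEG. The controls were 2 wild-type lines, called control lines 1 and 2. The other 2 lines, titled C1 and C2 and taken here as clones 1 and 2, are labelled as a triple knockout (tKO) that removes miR-206 along with miR-1a-2 and its relative miR-1a-1. Each line was sampled in growth medium with 20% FBS (GM) and after 3 days of differentiation in 2% HS (DM3), and the titles number 2 replicates per line and stage, called cultures 1 and 2. Genotype and stage thus gave 4 groups of 4 libraries, each from 2 lines. How the lines were derived is not given in the labels, so differences of lineage shared by both tKO lines and effects of the deletions cannot be told apart. The labels do not say how the cultures were separated, so p-values measure the spread between these libraries.

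D-type cyclins are induced by mitogens and bind CDK4 or CDK6. The active kinases phosphorylate the retinoblastoma protein, encoded by Rb1, which then releases E2F factors and lets S phase begin. INK4 proteins such as p18 (Cdkn2c) block CDK4 and CDK6, whereas the CIP/KIP proteins p21 (Cdkn1a), p27 (Cdkn1b) and p57 (Cdkn1c) inhibit cyclin E-CDK2 and can also help to assemble cyclin D complexes. In differentiating muscle, loss of cyclin D1, gain of p21 and hypophosphorylated Rb accompany permanent cell cycle exit, while cyclin D3 is known to accumulate in myotubes. miR-1 and miR-206 are muscle microRNAs that share a seed, the bases that pair with a target's 3′ UTR.

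The mature microRNA is shown because it defines the site searched for in the members. It is taken from RefSeq (GRCm38.p6, chr1:20679055-20679076, plus strand), with the seed, bases 2 to 8, in capitals.
mmu-miR-206-3p: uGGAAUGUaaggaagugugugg

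The longest annotated 3′ UTR of each member (GENCODE release M21, GRCm38) was searched for the 7-base seed match ACATTCC, for CATTCCA, the 7-base match that has an A opposite base 1, and for ACATTCCA, the 8-base site that joins both. Of the 10 members, 4 held a match: Ccnd1, Ccnd2, Cdk6 and Cdkn1b. The matches are printed in the direction of the transcript with the matching bases in capitals.
Ccnd1, chr7:144931679-144931707, minus strand: tgttccaaaacCATTCCAtttcaaagcac
Ccnd2, chr6:127129344-127129372, minus strand: ttgttataaacCATTCCAttagaaaagca
Cdk6, chr5:3526981-3527010, plus strand: tgcaaactcttACATTCCAattcctaaatt
Cdk6, chr5:3529931-3529960, plus strand: aaaaaaaaaaaACATTCCAggctgctgtag
Cdkn1b, chr6:134923659-134923687, plus strand: caattttgtaaACATTCCtcgacttggtg

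The Cdk6 UTR held 2 matches of 8 bases. Both lie past 3523218, where the deposited table ends the Cdk6 gene. Among 10806 tested genes with an annotated 3′ UTR, 19.0% held a 7-base or 8-base match and 4.46% an 8-base match. The share rises with UTR length. Among genes within 20% of the member's own UTR length, the share with a 7-base or 8-base match was 30.5% for Ccnd1, 48.0% for Ccnd2, 65.1% for Cdk6 and 37.2% for Cdkn1b. For an 8-base match alone it was 14.3% at the UTR length of Cdk6. A match is a description of the sequence and not evidence of a working site.

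Depth was 22642563 to 56585952 fragments per library. Values are FPKM, which divide fragments by gene length and by library size. Levels of different genes can thus be compared only as far as the gene lengths of the deposited table hold. For Cdk6 that length was 3735 bases, while its longest annotated 3′ UTR has 10217. The floor of detection was set at 3 fragments and covers counting error only. Of the members, 9 had a mean of at least 0.5 FPKM and were tested among 11832 genes. The cells were labelled myoblasts in GM and myotubes in DM3. Of 8 markers of cycling cells, 8 fell from GM to DM3 in each genotype, and of 8 markers of committed and fused muscle 7 rose in control and 8 in tKO cells. Of all tested genes 38.3% fell and 23.2% rose in control cells, and 36% fell and 24.9% rose in tKO cells. In control GM, Myf5 (13.2 to 20.6 FPKM) and Des (31.2 to 47.8) were present, while Myod1, a defining myoblast factor, was listed at 0 in every control GM library and had at most 0.0546 FPKM in tKO GM libraries. Pax7 had at most 6 fragments in any library. Of the 4 lineage markers that could be tested 3 rose with stage in each genotype. Cdh15, which encodes M-cadherin, was the 1 called between genotypes, in GM. It was higher in tKO than in control GM (29.7 ± 8.80 against 9.79 ± 1.44 FPKM, SD, n = 4, limma adjusted p = 0.00059). Des and Myf5 were lower in tKO GM, by -1.02 and -0.40 (limma adjusted p = 0.22 and 0.498), and Myod1 differed by 0.03. Des also differed between the tKO clones (clone 2 minus clone 1 -1.53, limma adjusted p = 0.00122). Among 9 markers of other fates, Adipoq, Plin1 and Bglap had at most 5 fragments, whereas Runx2 (4.40 to 9.20 FPKM) and Sox9 (4.04 to 26.0) were present in all libraries. Cebpa, an adipocyte factor, was also present in all, with GM means of 1.99 ± 0.485 FPKM for controls and 0.336 ± 0.1495 for the knockout (SD, n = 4), a difference of -1.15 (limma adjusted p = 0.0666), and its part in the genotype differences was not tested. Of these 3 testable markers, Runx2 fell with stage in each genotype and 0 were called between genotypes. The control call of Runx2 was lost with no filter on low values, after median-of-ratios scaling, without either control line, and without control GM line 2, culture 1 or 2, or control DM3 line 1, culture 1, line 2, culture 1, or line 2, culture 2. Without control DM3 line 2, culture 2 or tKO DM3 clone 2, culture 1, 1 of the 3 passed between genotypes in GM. Levels of the deleted microRNAs were not analysed here, which leaves the knockout itself unchecked.

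In control GM cells the order of mean levels in FPKM was Cdkn1a (239.8), Cdk4 (196.7), Ccnd1 (133.7), Cdkn2c (26.3), Cdkn1b (20.6), Ccnd3 (19.1), Cdk6 (9.14), Rb1 (7.87), Ccnd2 (3.77) and Cdkn1c. The library ranges of Cdkn1a and Cdk4, of Cdkn1b and Ccnd3, and of Cdk6 and Rb1 overlapped, and the other neighbours in this order did not. In control DM3 cells the order was Cdkn1a (449.9), Cdk4 (102.5), Ccnd3 (45.9), Cdkn1b (41.2), Ccnd1 (33.8), Rb1 (13.97), Cdkn2c (12.1), Cdk6 (6.26), Ccnd2 (6.14) and Cdkn1c. Here the ranges of Ccnd3 and Cdkn1b, of Cdkn1b and Ccnd1, of Rb1 and Cdkn2c, and of Cdk6 and Ccnd2 overlapped. Ccnd1 thus stood above Ccnd3 in GM and below it in DM3 by group means.

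The question put to the stages was how this set changes as the cells differentiate in each genotype. All 9 tested members changed with stage in control cells, where 61.5% of all tested genes did, and all 9 in tKO cells, where 60.9% did. A majority of genes thus passed the same test, and the members' count is to be read against that. In both genotypes Ccnd2, Ccnd3, Cdkn1a, Cdkn1b and Rb1 rose and Ccnd1, Cdk4, Cdk6 and Cdkn2c fell (limma on log2(FPKM + 1), Benjamini-Hochberg adjusted p under 0.05). Without control line 1 the control calls of Ccnd2, Cdk6, Cdkn1a, Cdkn1b and Rb1 were lost, and 4 members passed. Without control line 2 those of Ccnd2, Cdk6 and Cdkn1a were lost. The tKO calls of Cdk6 and Cdkn1a were lost without any 1 of the 4 lines, and that of Rb1 without tKO clone 2. In bulk RNA, fewer cells of a type and less RNA per cell cannot be told apart. The median of all genes lay at -0.15 in control and -0.12 in tKO cells on this scale, with 2743 genes higher and 4529 lower in control and 2951 and 4257 in tKO cells. After median-of-ratios scaling the medians were 0.012 and 0.0141, and the splits were 3648 and 3615 in control and 3638 and 3537 in tKO cells.

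Ccnd1 encodes cyclin D1, the mitogen-induced member of the family. Its level in control GM was 106.5 and 165.8 FPKM in line 1 (cultures 1 and 2) and 116.5 and 146.0 in line 2. In control DM3 it was 23.0 and 41.9 in line 1 and 22.9 and 47.5 in line 2. tKO GM libraries held 90.6 and 132.6 FPKM in clone 1 and 119.7 and 173.4 in clone 2, and tKO DM3 libraries 44.8 and 35.8 in clone 1 and 25.1 and 52.1 in clone 2. Every GM library was above every DM3 library. The difference between stages was -2.005 (SE 0.267) on the log2 scale in control cells (adjusted p = 8.57e-06) and -1.70 (SE 0.267) in tKO cells (adjusted p = 4.36e-05), with ratios of group means of 3.95 and 3.27. Culture 2 had the higher mean in each of the 4 groups, by 1.26 to 1.95 times.

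Ccnd3 encodes cyclin D3, the form retained in myotubes. It lay between 18.1 and 20.5 FPKM in control GM and between 18.4 and 21.5 in tKO GM. In DM3 it lay between 43.6 and 48.3 in control cells and between 36.6 and 54.0 in tKO cells. The stages did not overlap in either genotype. The rise was 1.22 (SE 0.104) in control and 1.10 (SE 0.104) in tKO cells (adjusted p = 7.55e-08 and 2.16e-07). These were the smallest adjusted p-values among the members in both genotypes.

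Ccnd2 encodes cyclin D2. In control GM it stood at 4.02 and 3.85 FPKM in line 1 and 3.44 and 3.77 in line 2. In tKO GM it stood at 0.118 and 0.248 in clone 1 and 0.0615 and 0.137 in clone 2, from 11 to 32 fragments against 546 to 801 in control libraries. In control DM3 it stood at 7.30 and 3.88 in line 1 and 6.93 and 6.46 in line 2, and in tKO DM3 at 0.798 and 3.04 in clone 1 and 0.873 and 1.40 in clone 2. No tKO library reached the lowest control library of its stage, although clone 1, culture 2 in DM3 came near it.

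The ratio of control to tKO means of Ccnd2 was 26.7 in GM and 4.02 in DM3. On the log2(FPKM + 1) scale, which understates changes of low genes, the differences were -2.06 (SE 0.216) and -1.55 (SE 0.216). On log2 fragment numbers fitted by voom they were -4.91 and -2.17. Both clones shared the lower level. Split by culture, the ratio was 41.5 in culture 1 and 19.8 in culture 2 in GM, and 8.52 and 2.33 in DM3. These are parts of the same values that led to the choice of Ccnd2, and they describe it without adding support. The DM3 difference was thus smaller in culture 2, where the tKO mean was 2.66 times that of culture 1. In controls the culture 1 mean was 1.38 times that of culture 2. Without clone 1, culture 2 the DM3 difference was -1.80. In those culture 2 libraries of tKO DM3 cells the summed FPKM of the muscle markers was 240.4 and 314.9, against 974.5 and 990.9 in culture 1, and its part in the result was not tested.

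With stage, Ccnd2 rose by 1.07 (SE 0.216) in tKO cells (adjusted p = 0.000427), a ratio of means of 10.8, and every tKO DM3 library was above every tKO GM library. In control cells the rise was 0.55 (SE 0.216, adjusted p = 0.035), a ratio of 1.63, and line 1, culture 2 in DM3 (3.88) lay within the GM range. The tKO rise passed the threshold in all 29 alternatives. The control rise did not pass in 11 of 29, with adjusted p from 0.00569 to 0.426 over all of them. Among single libraries, the call was lost without any of the 4 control GM libraries or without control DM3 line 1, culture 1, line 2, culture 1, or line 2, culture 2, with adjusted p from 0.0514 to 0.0973. The tKO libraries are the same ones whose low Ccnd2 led to its choice.

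**Figure D1:**
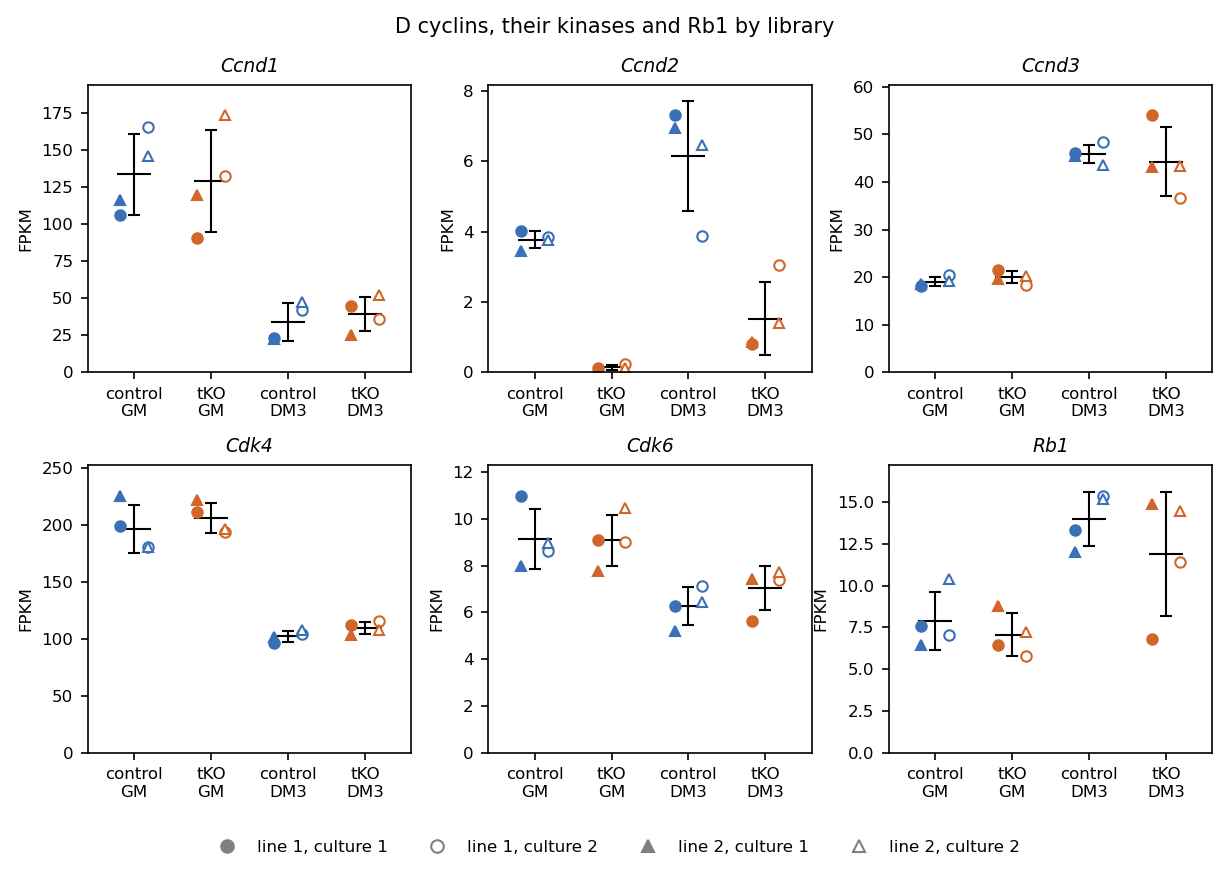
FPKM (vertical axes, linear from 0) of the D cyclins, their kinases and Rb1 in each of the 16 libraries, by group; circles are line 1 and triangles line 2, filled symbols culture 1 and open symbols culture 2, and bars give the mean and SD of 4 libraries. Ccnd2 is the panel in which the genotypes separate, with tKO GM libraries at 0.0615 to 0.248 FPKM and control GM libraries at 3.44 to 4.02. Ccnd1, Ccnd3, Cdk4 and, narrowly, Cdk6 separate by stage.

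By summed FPKM, the D cyclins changed in make-up more between stages than between genotypes. Their sum in GM was 156.5 ± 28.2 FPKM (SD, n = 4) in control and 149.2 ± 33.9 in tKO cells, and in DM3 it was 85.9 ± 11.6 and 85.3 ± 15.3. Ccnd1 made up 85.1% ± 2.03 of the sum in control GM and 38.4% ± 9.59 in control DM3, and 85.9% ± 3.77 and 45.6% ± 7.23 in tKO cells. Ccnd3 went from 12.4% ± 1.59 to 54.2% ± 7.63 in controls and, in tKO cells, from 13.98% ± 3.77 to 52.5% ± 7.67. Ccnd2 was the minor form throughout, with 2.47% ± 0.477 and 7.37% ± 2.53 in control GM and DM3 and 0.096% ± 0.0518 and 1.89% ± 1.46 in tKO cells. The sums of the genotypes overlapped at both stages.

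**Figure D2:**
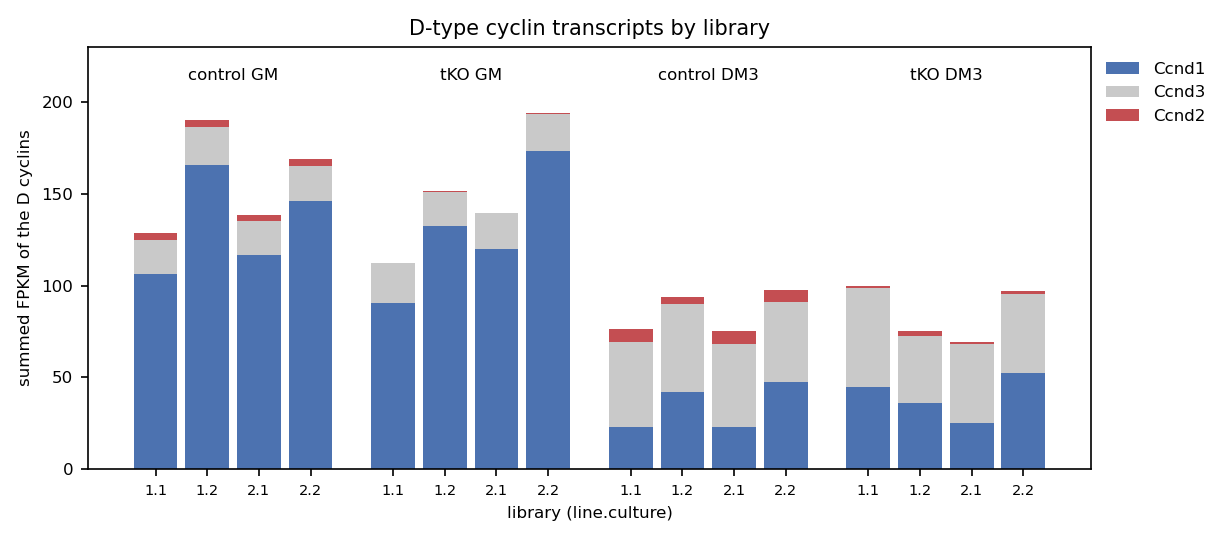
Summed FPKM of Ccnd1, Ccnd3 and Ccnd2 (vertical axis, linear from 0) in each library, labelled by line and culture and arranged by group. Ccnd1 fills most of each GM bar, Ccnd3 takes a larger part in DM3, and the Ccnd2 segment is small in control bars (2.03% to 9.56%) and smaller in tKO bars (0.0441% to 4.03%).

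The catalytic partners fell together. Cdk4 went from 196.7 ± 21.3 to 102.5 ± 4.82 FPKM (SD, n = 4) in controls and from 206.1 ± 13.2 to 109.8 ± 5.53 in the knockout, with no overlap between stages. The differences were -0.93 and -0.90 (SE 0.0937 each, adjusted p = 4.59e-07 and 5.95e-07). Cdk6 was far lower, at 9.14 ± 1.30 and 6.26 ± 0.801 in control GM and DM3 and 9.08 ± 1.09 and 7.04 ± 0.96 in tKO cells. Its fall was -0.48 (SE 0.129, adjusted p = 0.0041) in control cells and -0.33 (SE 0.129, adjusted p = 0.0366) in tKO cells. The Cdk6 stages did not overlap in either genotype, narrowly in tKO cells, with 7.773 FPKM in the lowest GM and 7.741 in the highest DM3 library. The tKO call on Cdk6 did not pass in 12 of 30 alternatives, with adjusted p from 0.0219 to 0.299 over all of them. It was -0.18 (adjusted p = 0.224) after median-of-ratios scaling. Leaving out single tKO libraries also ended it: GM clone 1, culture 1 or 2, GM clone 2, culture 2, or DM3 clone 1, culture 1, with adjusted p from 0.0612 to 0.113. The mean ratio of Cdk4 to Cdk6 was 21.9 ± 4.47 in control GM and 16.6 ± 2.14 in control DM3.

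Of the CIP/KIP inhibitors, Cdkn1a and Cdkn1b rose with stage and Cdkn1c was too low to test. Cdkn1a, a p53 and MyoD target that encodes p21, already had the highest mean of the members in GM. Cdk4 was higher than Cdkn1a in control GM culture 1 (199.2 and 225.9 FPKM in lines 1 and 2) and in tKO GM clone 1, culture 1 (211.4). Its control GM levels were 167.5 and 296.5 FPKM in line 1 and 162.9 and 332.4 in line 2, and its tKO GM levels 111.4 and 250.7 in clone 1 and 224.1 and 387.0 in clone 2. In each of the 4 lines culture 2 was higher than culture 1, and the ratio of culture means was 1.90 in both genotypes. In DM3 the control libraries held 403.6 to 484.0 FPKM and the tKO libraries 281.2 to 460.9. The rise was 0.98 (SE 0.304, adjusted p = 0.0107) in control cells, without overlap between stages.

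In tKO cells the rise of Cdkn1a was 0.73 (SE 0.304, adjusted p = 0.0466), and the stages overlapped because clone 2, culture 2 in GM exceeded 2 of the DM3 libraries. This call did not pass in 16 of 30 alternatives, with adjusted p from 0.00438 to 0.203. It was 0.40 (adjusted p = 0.19) without clone 1, culture 1 in GM, and it was also lost without tKO GM clone 1, culture 2 or clone 2, culture 1, without any 1 control DM3 library, or without tKO DM3 clone 1, culture 1, clone 2, culture 1, or clone 2, culture 2.

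Cdkn1b encodes p27, which is held high in quiescent cells. Its GM level was 20.6 ± 2.40 FPKM (SD, n = 4) in controls and 16.2 ± 6.56 in the knockout, and its DM3 level 41.2 ± 4.15 and 29.9 ± 3.72. The rise was 0.96 (SE 0.206, adjusted p = 0.000707) in control and 0.92 (SE 0.206, adjusted p = 0.00099) in tKO cells, and stages did not overlap in either. The third CIP/KIP gene, Cdkn1c, had 0 fragments in 12 of 16 libraries and at most 7, in control DM3 line 2, culture 2 (0.107 FPKM). It was not detectable at this depth in tKO GM and was above the floor in that 1 library alone.

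The INK4 member moved the other way. Cdkn2c, which encodes p18, fell from 26.3 ± 1.47 to 12.1 ± 0.83 FPKM (SD, n = 4) in control cells, by 1.06 on the log2 scale (SE 0.197, adjusted p = 0.000203). In tKO cells it fell from 23.8 ± 8.73 to 13.3 ± 2.48, by 0.74 (SE 0.197, adjusted p = 0.00393). The tKO stages overlapped, because Cdkn2c in tKO GM split by culture: culture 1 held 29.5 and 32.8 FPKM and culture 2 held 14.9 and 17.8. Control GM libraries held 24.4 to 27.9 in both cultures.

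Rb1, the substrate of the D cyclin kinases, rose from 7.87 ± 1.74 to 13.97 ± 1.60 FPKM (SD, n = 4) in control cells, by 0.77 (SE 0.20, adjusted p = 0.00322). The knockout libraries went from 7.07 ± 1.29 to 11.9 ± 3.73, by 0.64 (SE 0.20, adjusted p = 0.0113). In tKO DM3 the clone 1 libraries held 6.79 and 11.4 and the clone 2 libraries 14.9 and 14.5, so clone 1, culture 1 stayed within the GM range. The summed level of p21 and p27 transcripts relative to that of the D cyclins was 1.64 ± 0.325 in control GM and 5.82 ± 1.05 in control DM3, and 1.68 ± 0.367 and 4.89 ± 1.53 in tKO cells. Over both genotypes it ran from 1.178 to 2.082 in GM libraries and from 3.945 to 7.175 in DM3 libraries.

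**Figure D3:**
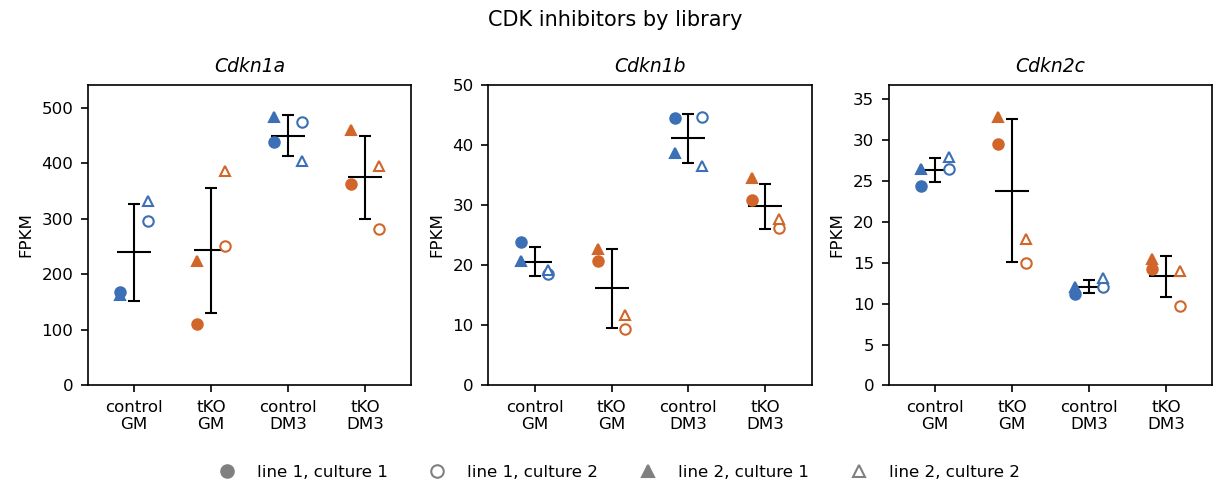
FPKM (vertical axes, linear from 0) of the inhibitors Cdkn1a, Cdkn1b and Cdkn2c in each library by group; circles are line 1 and triangles line 2, filled symbols culture 1 and open symbols culture 2, and bars give the mean and SD of 4 libraries. In GM, Cdkn1a is higher in culture 2 in every line, and in tKO GM Cdkn1b and Cdkn2c are lower in culture 2 (9.46 and 11.7 FPKM, and 14.9 and 17.8 FPKM) than in culture 1.

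Between genotypes, none of the 8 members other than Ccnd2 passed the test. In GM, 0 of 8 were called by limma, 0 had an unadjusted p under 0.05 and voom called 0, where 2.06% of all tested genes differed. In DM3, 0 of 8 were called and voom called 0, where 3.38% of genes differed. Cdkn1b was the 1 member with an unadjusted p under 0.05 there, where 1990 of all 11832 tested genes had one. For the genotype by stage interaction, 0 of 8 were called, 0 had an unadjusted p under 0.05 and voom called 0, against 0.254% of all genes. Of the 11832 genes, 2076 had an unadjusted limma p under 0.05 in GM and 1278 for the interaction. The GM and DM3 comparisons use separate libraries, while the interaction reuses both.

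The differences between genotypes of the members other than Ccnd2 lay between -0.45 and 0.24. Ccnd3 differed by 0.06 in GM and -0.06 in DM3 (SE 0.104), and Cdk4 by 0.07 and 0.10 (SE 0.0937). Cdkn1a differed by -0.04 and -0.28 with an SE of 0.304, so changes of moderate size in p21 transcripts were not detectable with this spread. Ccnd1 differed by -0.07 in GM and 0.24 in DM3 (SE 0.267). For the members that carry a seed match other than Ccnd2, Cdk6 differed by -0.01 and 0.15 (SE 0.129), with adjusted p = 0.992 and 0.617. The signs of the Ccnd1, Cdk6 and Cdkn1a differences in GM changed when single libraries were left out.

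The difference of Cdkn1b between tKO and control cells was -0.41 in GM (SE 0.206, adjusted p = 0.315) and -0.45 in DM3 (SE 0.206, adjusted p = 0.277), and neither passed. The adjusted p lay between 0.0768 and 0.982 in GM and between 0.0751 and 0.947 in DM3 over 30 alternatives, with the same sign in all. In DM3 the genotypes did not overlap, at 36.5 to 44.8 FPKM in control and 26.2 to 34.6 in tKO libraries. In GM, culture 1 levels of tKO cells (20.8 and 22.7) lay in the control range of 18.5 to 24.0, and culture 2 levels (9.46 and 11.7) lay below it. Within cultures, the ratio of control to tKO means was 1.03 and 1.79 in GM and 1.27 and 1.51 in DM3. With 2 libraries per genotype in each, no test was run within a culture.

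The low Cdkn1b and Cdkn2c of tKO GM culture 2 came from the same libraries in which other markers stood apart. Their summed FPKM of 8 cycling-cell markers was 462.9 and 459.8, against 598.9 and 614.1 in tKO culture 1 and 532.4 to 600.3 in control GM. Their muscle-marker sums were 73.1 and 26.4, against 9.68 and 18.4 in culture 1 and 7.81 to 10.99 in control GM, and Acta1, a skeletal actin, was the main part of the highest sum at up to 72.1 FPKM. Myh3, the embryonic myosin, was at or near 0 in all GM libraries, with at most 0.0102 FPKM. The part of these differences in the Cdkn1b and Cdkn2c values was not tested.

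**Figure D4:**
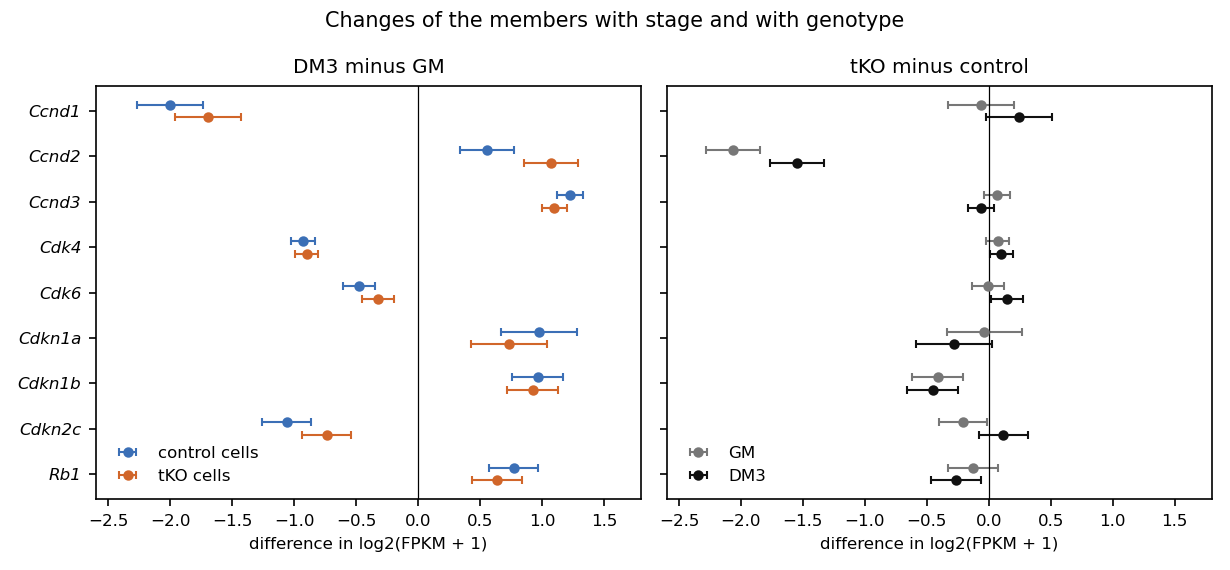
Differences in log2(FPKM + 1) with their standard errors (horizontal axes) for the 9 tested members, DM3 minus GM in each genotype on the left and tKO minus control at each stage on the right, each from 4 against 4 libraries. The stage differences of control and tKO cells have the same sign for every member, and on the right Ccnd2 lies at -2.06 and -1.55 while the other members lie between -0.45 and 0.24.

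Differences between the lines of a genotype are given beside the genotype values. Between the tKO clones 5.41% of all genes differed, and 0 of 9 members were called. Rb1 was the 1 member at an unadjusted p under 0.05, where 2569 of all 11832 tested genes were. Clone 2 minus clone 1 was 0.50 for Rb1 (SE 0.17, adjusted p = 0.108) and 0.62 for Cdkn1a (SE 0.297, adjusted p = 0.254). Clone 2 held more Cdkn1a than clone 1 in each culture at both stages, and the difference passed in 1 of 22 alternatives. Without clone 1, culture 2 in DM3 Rb1 passed, with an adjusted p of 0.0208. Between the control lines 0% of genes differed, with 42 genes at an unadjusted p under 0.05, and 0 of 9 members were called or had such a p. These comparisons were not run with voom.

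The next step of the pathway was described from lists of its genes. The lists described here were chosen with earlier results known, and their counts are descriptions. Of 7 genes of the cyclin E step and the CDK-activating kinase, 7 changed with stage in each genotype, 6 lower and 1 higher, beside 61.5% and 60.9% of all genes. Between genotypes 0 were called at either stage, where 2.06% of all genes were called in GM and 3.38% in DM3. The median difference with stage was -0.92 in control and -0.86 in tKO cells, against -0.15 and -0.12 for all genes. Ccne2, which encodes cyclin E2, fell from 10.9 to 1.23 FPKM in controls (-2.46, adjusted p = 2.39e-07) and, in the knockout, from 15.3 to 1.37 (-2.79, adjusted p = 5.94e-08). Cdc25a, a phosphatase that activates CDK2, fell by 1.01 and 1.32 on the log2 scale. Mnat1, the assembly factor of the CDK-activating kinase, rose by 0.68 and 0.57.

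The pocket proteins and E2F/DP factors include the partners and relatives of Rb. Of 12, 8 fell and 0 rose with stage in control cells, and 8 fell and 2 rose in tKO cells, beside the 61.5% and 60.9% of all genes that changed. After median-of-ratios scaling 7 fell and 1 rose in control cells, and without control line 1 the list held 5 calls there. Tfdp1, a dimerization partner of E2Fs, fell from 104.2 to 29.8 FPKM in controls and from 105.3 to 28.1 in the knockout (-1.78 and -1.92), and the repressor E2f7 fell by 1.70 and 2.07. Rbl2, which encodes the Rb relative p130, rose by 0.51 in tKO cells (adjusted p = 0.0109), and its difference in control cells was 0.33 (adjusted p = 0.0808). The stage difference of Rbl2 between genotypes did not pass a test (adjusted p = 0.805).

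E2f5, a pocket-protein-bound E2F, was the 1 listed pathway gene called between genotypes, 1 of 26 tested in DM3 (3.85%), where 3.38% of all tested genes were called. The call was lost without either control line. Its DM3 level was 8.18 ± 0.474 FPKM (SD, n = 4) in controls and 17.9 ± 1.48 in the knockout, a difference of 1.04 (SE 0.154, adjusted p = 0.000821). In GM it stood at 7.78 ± 0.688 and 10.4 ± 3.14 (adjusted p = 0.265). Its rise with stage was 0.77 in tKO cells (adjusted p = 0.000405) and 0.07 in control cells (adjusted p = 0.733), but the interaction did not pass (0.70, SE 0.217, adjusted p = 0.234). Between the clones E2f7 was higher in clone 2 by 0.49 (SE 0.13, adjusted p = 0.0498), and that call was lost with no filter on low values and without any 1 library other than tKO DM3 clone 1, culture 2, without which 4 genes of the list were called.

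Of 6 genes for the turnover of cyclins and CDK inhibitors, 4 changed with stage in each genotype, 3 lower and 1 higher, and 0 were called between genotypes. The stage shares are near the 61.5% and 60.9% of all genes, and between genotypes 2.06% of all genes were called in GM and 3.38% in DM3. After median-of-ratios scaling the calls were 2 lower and 2 higher in each genotype, and without either tKO clone, or fitted on the compared libraries alone, 2 were called in tKO cells. Skp2 and Cks1b, the receptor and its cofactor that target p27 for degradation, fell by 1.34 and 1.28 in control and by 1.48 and 1.47 in tKO cells. Fbxw7, which targets cyclin E, fell by 0.53 and 0.43, and Fbxo31, which targets cyclin D1, rose by 0.48 and 0.36. Among the other INK4 inhibitors, Cdkn2d (p19) was the 1 gene of 3 that could be tested and was not called in any comparison, with 30.8 and 39.2 FPKM in control GM and DM3. Cdkn2a had 0 fragments in all 16 libraries and Cdkn2b had at most 0.0699 FPKM.

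Among the genes whose log2(FPKM + 1) followed Ccnd2 most closely over the 16 libraries were Nkain1 (Pearson's r 0.942), Arhgef6 (0.941), Apobec1 (0.930) and Igf2r (0.930). Each of these 4 was lower in tKO than in control means at both stages, as Ccnd2 was. They were picked by likeness to Ccnd2, itself chosen as lower in tKO cells, so this pattern comes with the choice and is no separate result. Nkain1, for example, had 15.4 and 2.12 FPKM in control and tKO GM and 23.5 and 5.33 in DM3. For Cdkn1a they were Scamp5 (0.943), Slc12a4 (0.937), Ptprm (0.935), Tef (0.922) and Cdh13 (0.918). The libraries fall into 4 groups that share lines and stages, so these coefficients are descriptions of likeness.

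Ccnd2 (ENSMUSG00000000184) lies on chromosome 6, 127125779 to 127151048, on the minus strand. Within 500 kb of it the table lists 18 other genes, 5 of which could be tested. Parp11, a mono-ADP-ribosyltransferase gene 295.8 kb upstream, had 0.498 ± 0.0932 FPKM in tKO GM against 1.38 ± 0.0509 in control GM. The difference was -0.67 in GM (SE 0.143, adjusted p = 0.0238) and was not called in DM3 (-0.12, adjusted p = 0.719). Of all tested genes 2.06% were called in GM and 3.38% in DM3. The other 4, Ndufa9, Rad51ap1, D6Wsu163e and 9630033F20Rik, were not called at either stage. The nearest of them, 9630033F20Rik at 16.2 kb, had means of 3.15 FPKM in control and 4.44 in tKO GM (adjusted p = 0.266). Ccnd2 overlaps the antisense gene 9330179D12Rik, which had at most 0.0282 FPKM.

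Several other members overlap a gene on the opposite strand, and the labels do not say if fragments were counted by strand. Cdk4 shares 604 bases with Tspan31 (78.6 FPKM on average), Ccnd1 shares 818 with Oraov1 (4.95), Ccnd3 shares 361 with Bysl (14.2) and Rb1 contains Lpar6 (0.503) and overlaps Rcbtb2 (4.66). The shared bases were counted between the start and end of each gene, introns included. If fragments were not counted by strand, reads from any shared exon bases of these pairs cannot be told apart.

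Promoter windows of 250 bases before to 50 bases after the start were present in the RefSeq table (GRCm38.p6) for 6 of the 10 members. They were searched on both strands for the E-boxes CAGCTG and CACCTG, the motifs of myogenic factors and their partners, and for the E2F motifs TTTCCCGC and TTTGGCGC. Over all 32851 promoters the shares were 16.3%, 20.2%, 1.07% and 0.514%. The E-boxes were found in Cdkn1a alone among these members, 1 in each of its 2 listed promoters, and the E2F motifs in none of the 6. The Cdkn1a windows are shown because Cdkn1a has the highest group means of the members, with the E-box in capitals.
Cdkn1a, chr17:29091004-29091028, plus strand: atacccaactacCAGCTGtggggtg
Cdkn1a, chr17:29093570-29093599, plus strand: aagagaatagccCAGGTGtgggggagggga
The second motif reads CACCTG on the minus strand. Binding was not measured in these samples.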

How the data were processed

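Poly(A)-selected RNA of 16 libraries was sequenced on an Illumina HiSeq instrument, per the labels' protocols. The authors deposited 1 table of FPKM values, 1 column per library. The submitters' processing notes name STAR, DESeq and mm10, without versions or roles; the annotation release and strand setting are not given in the sources used here. FPKM times gene length gave whole multiples of 1 step per library for 100% of values (within 0.01 fragment), and fragment numbers were recovered from these steps. All 16 columns were matched to samples through the name in each sample's description.

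log2(FPKM + 1) of the 11832 genes with a mean of at least 0.5 FPKM was fitted with limma 3.58.1 (R 4.3.3), 4 group means over all 16 libraries, empirical Bayes with trend and robust options, with p-values adjusted by Benjamini-Hochberg over the 11832 genes. Lines of a genotype were compared in a line-by-stage model. The procedure was tested on simulated data. Genes were named by rule: every member; in pathway lists, all called genes if 4 or fewer, otherwise the 2 largest rises and 2 largest falls; the 5 most like Ccnd2 and Cdkn1a (1 of those for Ccnd2 is not reported here); and tested genes within 500 kb of Ccnd2. Members and lists were chosen with earlier results of these data known. Voom on fragment numbers called 203 genes between genotypes in GM and 404 in DM3. Other alternatives are in the closing section. Calculations also used Python 3.11.15.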

Additional observations from a re-analysis of the deposited data

Results flagged for a closer look

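The level of Cdk6 in tKO DM3 cells had 1 library apart from the rest: clone 1, culture 1 held 5.62 FPKM, against 7.38, 7.42 and 7.74 in the other 3. Its gap to the nearest library exceeded Dixon's 95% critical value. This was 1 of 37 groups of values examined, and chance flags about 1 in 20. Without that library the tKO fall of Cdk6 with stage was -0.24 (limma, adjusted p = 0.106) in place of -0.33.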

How the results depend on the processing

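The counts of members called kept within 1.5 times in 190 of 193 recalculations. The exceptions were 4 members (1 higher, 3 lower) with stage in control cells without control line 1, against 9, and 1 member between clones, against 0, with a replicate block of culture number nested in stage (Cdkn1a, adjusted p = 0.00469), an alternative chosen after seeing the data. Leaving out single libraries gave 0 to 1 members between clones, and differences from -0.22 to 0.0895 (Ccnd1), -0.0694 to 0.0768 (Cdk6) and -0.304 to 0.292 (Cdkn1a) in GM and -0.161 to 0.021 (Ccnd3) in DM3. In GM, same-numbered libraries of the 2 genotypes tended to deviate together (mean r 0.25, from 0.0955 to 0.452). Differently numbered ones had a mean r of -0.249, which largely mirrors the first value because deviations were taken from group means. In DM3 the means were 0.187 (from -0.224 to 0.558) and -0.188. Between stages of a genotype, same-numbered libraries had a mean r of 0.00688. The labels state no pairing, so the main fit used no block and left in any culture effect shared within a stage. With culture number as 1 replicate block across stages, 9 members changed with stage in each genotype and 0 with genotype. Such a block cannot take up a culture effect that differs between stages, so these counts do not test for one. Counts of called genes in the pathway and marker lists moved by over 1.5 times in 69 of 1544 recalculations. Single members gave 1206 recalculations, of which 46 lost a stage call and 15 changed the sign of a genotype difference that had not passed. After median-of-ratios scaling Cdk6 in GM was 0.0143. Without control line 1 it was 0.0857. Without tKO clone 1, GM differences were 0.129 (Ccnd1), 0.369 (Cdkn1a) and 0.037 (Rb1), and that of Rb1 in DM3 was 0.0722. Without tKO clone 2, Cdkn2c in DM3 was -0.0299. Depth limits Cdkn1c, which has at most 7 fragments, and Ccnd2 in tKO GM, with 11 to 32.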
